A study of Homo sapiens with 9 samples.

Results

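The comparison set A549 cells given siRNA against FAM210B beside A549 cells given siRNA against UQCRC2, so that both groups had a mitochondrial protein targeted and neither was a control. It used 6 of the 9 arrays of the study, 3 per group, and 15964 genes, which came from 16863 of the 67528 rows of the deposited table. A row was used when it carried exactly 1 gene symbol and its mean over the 9 arrays reached 4.25 on the log2 scale, the median of all row means, and the row of highest mean stood for each gene. A549 is an established human line from a lung adenocarcinoma. The 3 groups were cells transfected with siRNA against FAM210B (si-FAM210B), siRNA against UQCRC2 (si-UQCRC2) and a negative control siRNA (control). All were collected 72 h after transfection. Per the labels the siRNAs were mixtures and the arrays of a group were biological replicates. The labels do not say that these came from separate cultures, so the p-values cover the spread among these arrays alone, which may be technical.

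UQCRC2 is a core subunit of complex III, the enzyme of the mitochondrial inner membrane that takes electrons from ubiquinol to cytochrome c and pumps protons. FAM210B is also a mitochondrial membrane protein and is known for its part in iron delivery for heme synthesis in developing red cells. Cells sense failing mitochondria through several transcription programmes, among them the integrated stress response, in which the factor ATF4 raises genes of amino acid synthesis and tRNA charging.

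The arrays of the groups differed in how closely they agreed. The median SD of a gene over the 3 arrays was 0.130 in si-FAM210B cells, 0.0379 in si-UQCRC2 cells and 0.0878 in control cells. The array labelled si-FAM210B replicate 1 and control replicate 3 stood apart from the others of their groups, with scores of -33.2 and -6.99 on a first principal component that held 55.3% of the variance. The other si-FAM210B arrays scored -0.908 and -8.39, the si-UQCRC2 arrays 8.75 to 9.42 and the other control arrays 9.87 and 12.1. All 5 epithelial markers of the line were measured, at 5.24 to 11.7 over the 9 arrays. Of 13 markers of blood, endothelium, fibroblasts, red cells and muscle, 5 reached the level for testing, and those measured lay between 2.41 and 5.43. Below, the range of the markers of other cell types means this range, and not every named gene with arrays in it is marked. All levels are log2 signal made by the authors with RMA, and levels of different genes cannot be set against each other. A difference is the si-FAM210B mean minus the si-UQCRC2 mean on that scale, given ± its standard error from limma, and n is 3 arrays in each group throughout. In bulk RNA, fewer cells of a kind and less RNA per cell cannot be told apart.

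The targeted genes were examined first. UQCRC2 stood at 9.25, 9.83 and 9.82 in si-FAM210B cells, against 8.34, 8.37 and 8.37 in si-UQCRC2 cells. Every si-FAM210B array lay above every si-UQCRC2 array, and the control arrays read 9.96, 9.84 and 9.70. The difference was 1.27 ± 0.14 (adjusted p = 0.000772), which makes the si-FAM210B signal 2.42 times that of si-UQCRC2 cells. FAM210B stood at 6.48, 6.10 and 6.22 in si-FAM210B cells, against 6.46, 6.53 and 6.40 in si-UQCRC2 cells. Here the groups overlapped, because the array labelled si-FAM210B replicate 1 was within the range of the si-UQCRC2 arrays. The control arrays read 6.39, 6.46 and 6.48. The difference of -0.20 ± 0.09 did not pass (adjusted p = 0.173 in limma), and the si-FAM210B signal was 87.3% of that of si-UQCRC2 cells. Without the array labelled si-FAM210B replicate 1 the difference was -0.30 and passed (adjusted p = 0.0149 in limma). The lower FAM210B level that the label implies therefore rests on 2 of its 3 arrays, and every direction given here is that of the arrays so labelled. The exact two-sided permutation test over arrays gave p = 0.1 for UQCRC2, the smallest that 3 against 3 arrays allow, and p = 0.3 for FAM210B.

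Across the transcriptome, lower levels in si-FAM210B cells were more frequent than higher ones among the genes that passed. Of 15964 genes, 1561 (9.78%) were called at an adjusted p under 0.05, 524 higher (3.28%) and 1037 lower (6.50%) in si-FAM210B cells than in si-UQCRC2 cells. The imbalance was greater among large differences. At 1.5-fold or more, 38 called genes were higher and 171 lower, and at 2-fold or more 2 were higher and 25 lower. The median difference over all genes was 0.05. The groups did not overlap for 6660 genes (41.7%), 3521 (22.1%) with si-FAM210B arrays higher and 3139 (19.7%) with them lower, and all called genes were among these. In the same fit 1002 genes (6.28%) were called between si-FAM210B and control cells and 712 (4.46%) between si-UQCRC2 and control cells. These last comparisons share the control arrays, so only their values are given side by side. Rows left out for their annotation gave 123 calls of 1174 (10.5%) where they name several genes, 53 higher and 70 lower, and 248 of 15727 (1.58%) where they name none, 67 higher and 181 lower.

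**Figure D1:**
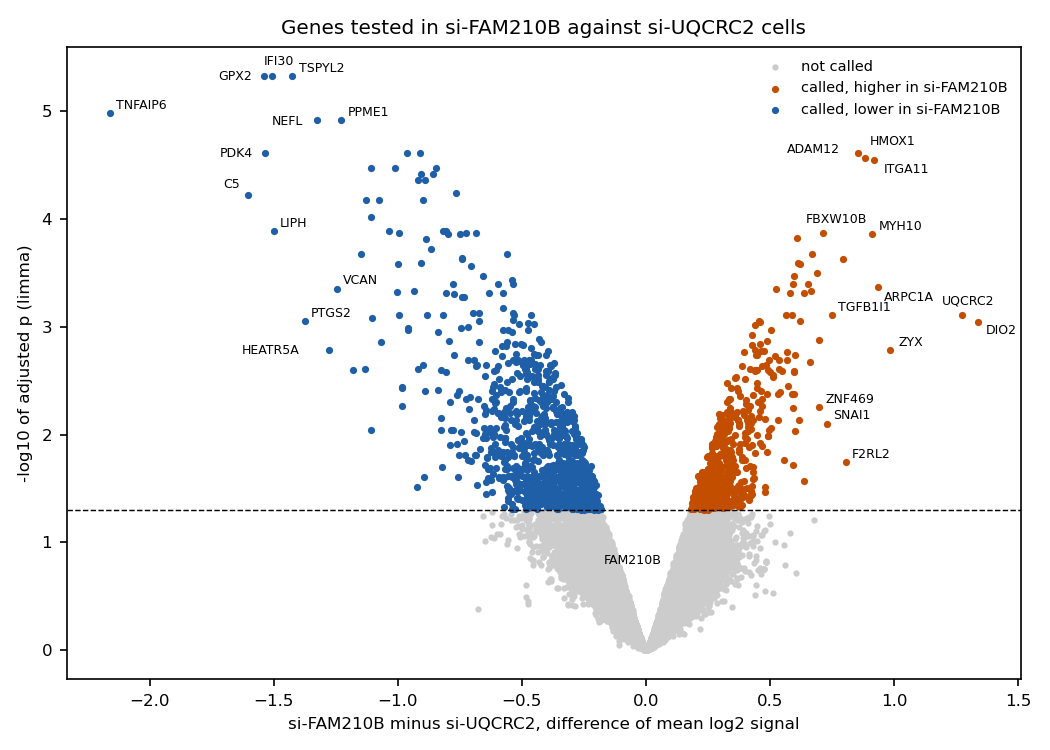
Each point is 1 of 15964 genes, by its difference of mean log2 signal, si-FAM210B minus si-UQCRC2 (horizontal axis), and minus log10 of its limma adjusted p (vertical axis), with the dashed line at an adjusted p of 0.05. Of the called genes 524 lie to the right and 1037 to the left.

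The number of calls depended on single arrays. Leaving out the array labelled si-FAM210B replicate 1 gave 1788 calls, leaving out replicate 2 of that group 3280 and leaving out its replicate 3 gave 947. Leaving out a si-UQCRC2 array, the group with the smallest spread, gave 571, 544 and 505 calls for replicates 1, 2 and 3. Without both arrays that stood apart there were 3835 calls, 1760 higher and 2075 lower, and 1556 of the 1561 genes were among them. In every one of these fits more genes were lower than higher in si-FAM210B cells. Counts of list members moved with these totals: all 68 such counts followed were at their lowest, ties included, without 1 or more of the si-UQCRC2 arrays, 56 were at their highest without si-FAM210B replicate 2, and 54 moved by over 1.5 times with some array left out. In the 9 fits that each lacked 1 array, 453 genes kept their call throughout, 131 higher and 322 lower.

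**Figure D2:**
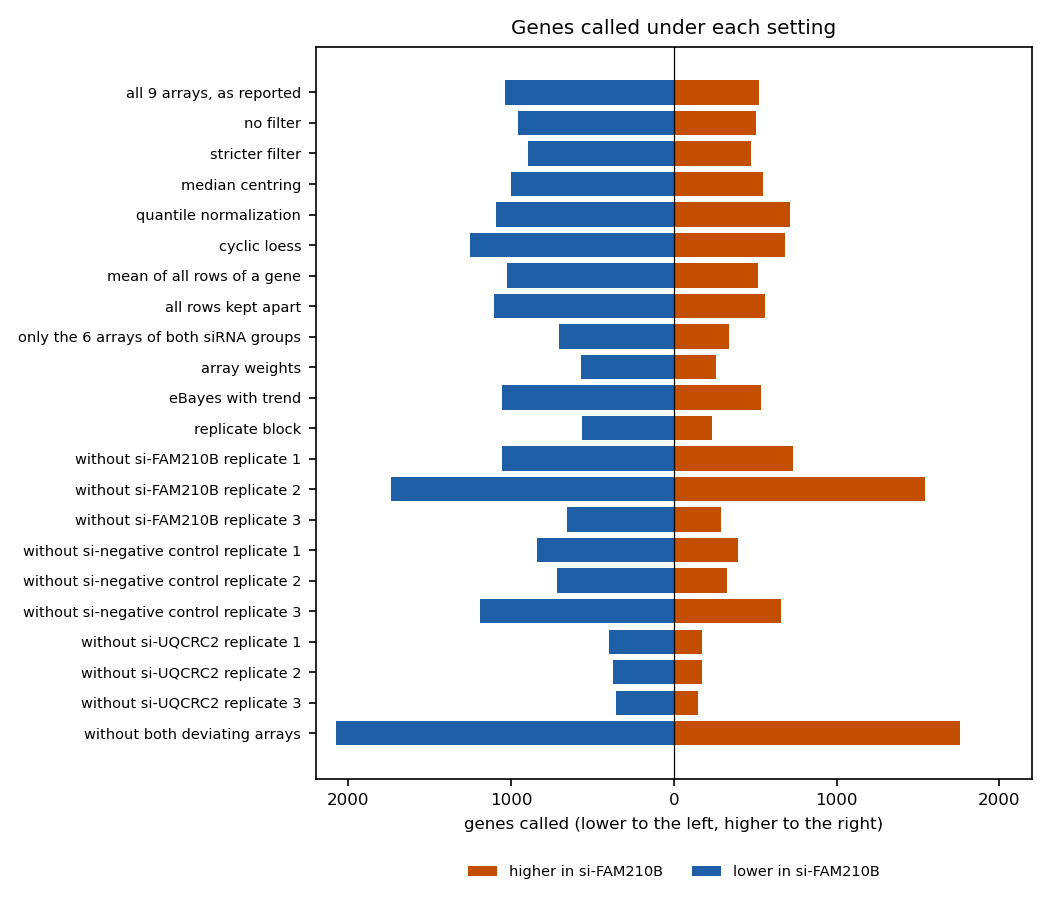
Bars give the number of genes called higher (right) and lower (left) in si-FAM210B than in si-UQCRC2 cells with all arrays and under each other setting. The bars are longest without both arrays that stood apart, 1760 and 2075, and short without any si-UQCRC2 array, where the total is 505 to 571.

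Of the 12 protein-coding genes with the largest differences on the lower side, TNFAIP6 had the largest measured difference, followed by C5 and GPX2. TNFAIP6, which encodes a secreted hyaluronan-binding protein, stood at 3.39, 3.52 and 3.76 in si-FAM210B cells, against 5.79, 5.84 and 5.52 in si-UQCRC2 cells. The control arrays read 3.76, 3.90 and 3.82, and the si-UQCRC2 arrays stood alone above both other groups. The gene was tested only because its si-UQCRC2 level raised its mean past the minimum of 4.25: the si-FAM210B and control arrays lay below that minimum, in the range of the markers of other cell types. The measured difference of -2.16 ± 0.11 (adjusted p = 1.04e-05) is therefore one against a level not told from background, and its rank rests in part on that choice. In NEFL, the light neurofilament, the si-UQCRC2 arrays also stood alone, with 6.39, 6.64 and 6.49 in si-FAM210B cells, against 7.76, 7.86 and 7.87 in si-UQCRC2 cells. Its control mean was 6.65 and its difference -1.33 ± 0.07 (adjusted p = 1.23e-05). VCAN, a large matrix proteoglycan, read 6.14, 6.63 and 6.61 in si-FAM210B cells, against 7.73, 7.70 and 7.69 in si-UQCRC2 cells. The lowest si-FAM210B array was again replicate 1, the control mean was 6.63, and the difference was -1.25 ± 0.12 (adjusted p = 0.000444). PPME1, the methylesterase of protein phosphatase PP2A, averaged 8.18 in si-FAM210B cells and 9.40 in si-UQCRC2 cells, with a control mean of 8.47.

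In GPX2 and PDK4 the si-FAM210B arrays stood apart from both other groups, and in IFI30 all 3 groups were apart. GPX2, a glutathione peroxidase, read 6.83, 6.88 and 6.94 in si-FAM210B cells, against 8.28, 8.45 and 8.53 in si-UQCRC2 cells. The control arrays, at 8.39, 8.37 and 8.37, overlapped the si-UQCRC2 arrays, and the difference was -1.54 ± 0.07 (adjusted p = 4.73e-06). PDK4, the kinase that switches off pyruvate dehydrogenase, read 4.64, 4.65 and 4.75 in si-FAM210B cells, against 6.05, 6.24 and 6.34 in si-UQCRC2 cells. Its control arrays read 6.23, 6.13 and 5.95, and its si-FAM210B level was 34.5% of the si-UQCRC2 level (difference -1.53 ± 0.09, adjusted p = 2.44e-05). The PDK4 signal on si-FAM210B arrays lay within the 2.41 to 5.43 of the markers of other cell types, so this percent may be set by background. IFI30, a lysosomal thiol reductase of antigen processing, averaged 7.14 in si-FAM210B cells and 8.64 in si-UQCRC2 cells, with a control mean of 8.35 and a difference of -1.51 ± 0.07 (adjusted p = 4.73e-06). For these genes si-FAM210B minus control was -1.50, -1.43 and -1.22, and si-UQCRC2 minus control 0.04, 0.11 and 0.29, in the order GPX2, PDK4, IFI30. Of the si-UQCRC2 differences from control only that of IFI30 was called among these genes (adjusted p = 0.0377).

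In the other 5 genes of the 12 the control means also lay between both siRNA groups. C5, a complement component, read 5.46, 5.88 and 5.68 in si-FAM210B cells, against 7.30, 7.23 and 7.30 in si-UQCRC2 cells, with control arrays at 6.64, 6.56 and 6.29. All 3 groups were apart, and the difference was -1.60 ± 0.11 (adjusted p = 5.99e-05). PTGS2, the inducible cyclooxygenase, read 5.06, 5.64 and 5.72 in si-FAM210B cells, against 6.78, 6.88 and 6.88 in si-UQCRC2 cells, and its control mean was 6.38. Its lowest array was the one labelled si-FAM210B replicate 1, and the difference was -1.37 ± 0.15 (adjusted p = 0.000886). LIPH, a phospholipase that makes lysophosphatidic acid, averaged 6.17 in si-FAM210B cells and 7.67 in si-UQCRC2 cells, with a control mean of 6.78. TSPYL2, a protein of the nucleosome assembly family, averaged 5.98 in si-FAM210B cells and 7.40 in si-UQCRC2 cells, with a control mean of 6.51. HEATR5A averaged 6.35 in si-FAM210B cells and 7.63 in si-UQCRC2 cells, and its control mean was 7.07. Differences of these 3 genes were -1.50, -1.42 and -1.28.

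The 12 largest differences on the higher side included the adhesion and cytoskeleton genes ZYX, ARPC1A, ITGA11, MYH10 and TGFB1I1. DIO2, the deiodinase that activates thyroid hormone, read 5.70, 6.38 and 6.15 in si-FAM210B cells, against 4.68, 4.76 and 4.78 in si-UQCRC2 cells. Its si-FAM210B signal was 2.53 times the si-UQCRC2 signal, the difference was 1.34 ± 0.15 (adjusted p = 0.000904) and the control mean was 5.25. The si-UQCRC2 arrays lay in the range of the markers of other cell types, so this ratio may be set by background. ZYX, zyxin of focal adhesions, read 8.55, 8.01 and 8.10 in si-FAM210B cells, against 7.26, 7.24 and 7.22 in si-UQCRC2 cells, with a control mean of 7.72 and a difference of 0.98 ± 0.12 (adjusted p = 0.00165). ARPC1A, a subunit of the actin-nucleating Arp2/3 complex, averaged 9.47 in si-FAM210B cells and 8.54 in si-UQCRC2 cells, with a control mean of 9.25. MYH10, a nonmuscle myosin heavy chain, averaged 8.34 in si-FAM210B cells and 7.42 in si-UQCRC2 cells, with a control mean of 8.16. For both of these the difference from control was the larger in si-UQCRC2 cells, at -0.71 and -0.74, against 0.22 and 0.17 in si-FAM210B cells.

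ITGA11, a collagen-binding integrin subunit, read 6.71, 6.80 and 6.77 in si-FAM210B cells, against 5.81, 5.84 and 5.88 in si-UQCRC2 cells. Its control mean was 5.74, close to the si-UQCRC2 level, and the difference was 0.92 ± 0.06 (adjusted p = 2.87e-05). ADAM12, a membrane metalloprotease, averaged 6.17 in si-FAM210B cells and 5.32 in si-UQCRC2 cells, with a control mean of 5.45 and a difference of 0.85 ± 0.05 (adjusted p = 2.44e-05). The si-UQCRC2 arrays of ADAM12 lay in the range of the markers of other cell types, so this difference may be set by background. HMOX1, the enzyme that degrades heme, read 8.29, 8.18 and 8.24 in si-FAM210B cells, against 7.37, 7.36 and 7.32 in si-UQCRC2 cells. The control arrays read 7.76, 7.83 and 7.84, between both siRNA groups, and the difference was 0.88 ± 0.05 (adjusted p = 2.71e-05). TGFB1I1, a focal adhesion adaptor, averaged 9.29 in si-FAM210B cells and 8.54 in si-UQCRC2 cells, both above its control mean of 7.98. SNAI1, a repressor of epithelial genes, read 7.59, 7.02 and 7.08 in si-FAM210B cells, against 6.52, 6.54 and 6.44 in si-UQCRC2 cells, and its highest value came from the array labelled si-FAM210B replicate 1. F2RL2, a protease-activated receptor, differed by 0.80, FBXW10B by 0.71 and ZNF469, a zinc finger protein, by 0.70. FBXW10B has a close copy, so its signal may be shared. The call of F2RL2 was lost in the fits without si-FAM210B replicate 3, and si-UQCRC2 replicates 1, 2 and 3. The other 23 of the 24 largest differences kept their calls with each array left out.

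**Figure D3:**
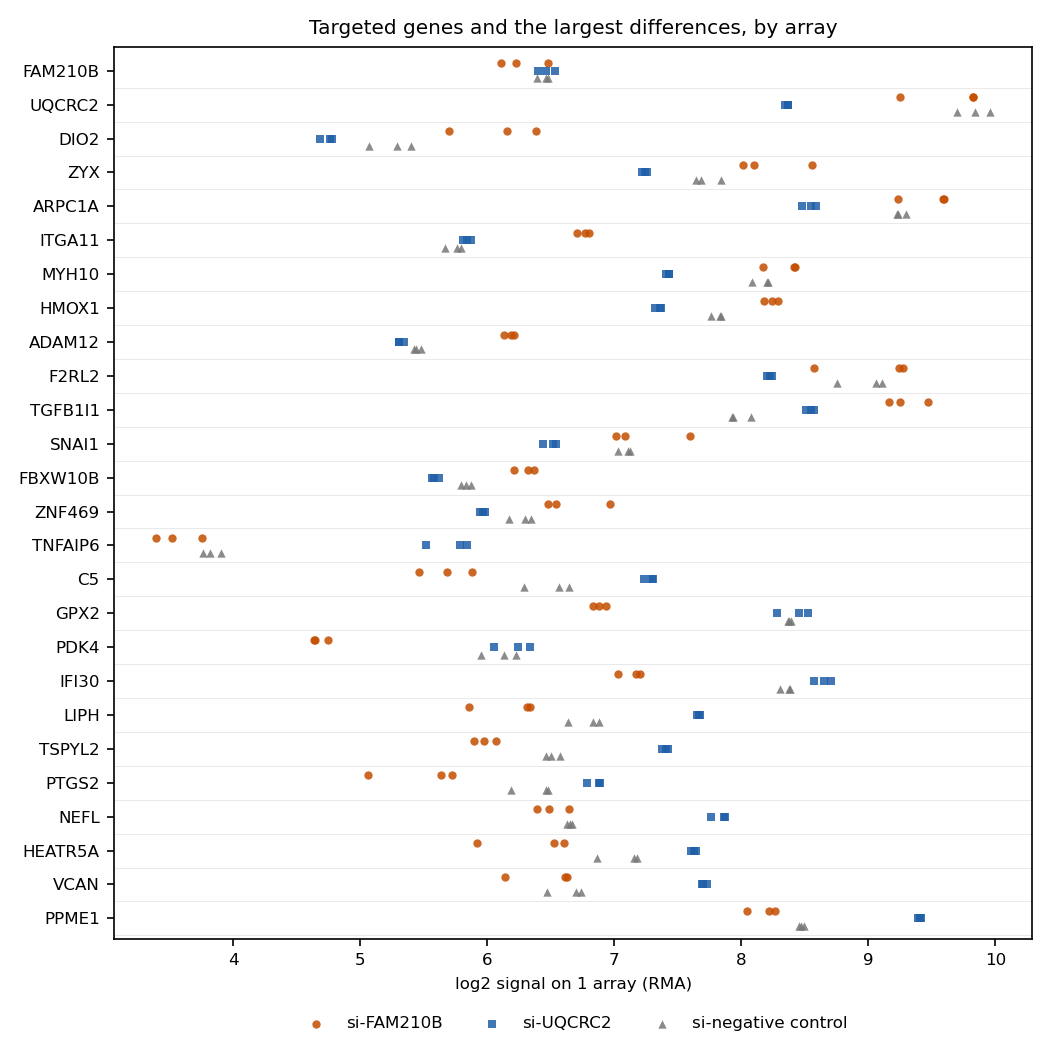
Log2 signal on each array (horizontal axis) for the 2 targeted genes and the 12 largest higher and 12 largest lower protein-coding genes, with si-FAM210B arrays as circles above si-UQCRC2 arrays as squares and control arrays as triangles. In TNFAIP6, NEFL and VCAN the squares stand alone, and in GPX2, PDK4, IFI30, ITGA11 and ADAM12 the circles lie farther from both other groups than those lie from each other.

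Every called target of the tumour suppressor p53 was lower in si-FAM210B cells than in si-UQCRC2 cells. Of 27 targets tested, 11 (40.7%, against 6.50% over all genes) were called lower and 0 higher. Their median difference was -0.21 against 0.05 over all genes. TP53INP1, a stress protein of autophagy and cell death, read 5.30, 5.67 and 5.79 in si-FAM210B cells, against 6.49, 6.52 and 6.69 in si-UQCRC2 cells. The control arrays read 5.36, 5.38 and 4.94, so the si-UQCRC2 arrays stood highest of the 3 groups, and the difference was -0.98 ± 0.15 (adjusted p = 0.00367). SESN1, a sestrin that restrains the growth kinase mTORC1, averaged 4.37 in si-FAM210B cells and 5.02 in si-UQCRC2 cells (difference -0.65 ± 0.09, adjusted p = 0.00227). The death receptor gene FAS averaged 6.11 in si-FAM210B cells and 6.49 in si-UQCRC2 cells, and SPATA18, which acts in mitochondrial quality control, 4.49 in si-FAM210B cells and 4.97 in si-UQCRC2 cells. Their control means were 4.49 for SESN1, 5.93 for FAS and 4.32 for SPATA18. In all 3 groups the means of SESN1 and SPATA18 lay in the range of the markers of other cell types, near background. Against control, si-UQCRC2 cells were higher in TP53INP1 by 1.34, SESN1 by 0.53, FAS by 0.56 and SPATA18 by 0.65, each called, and none of the 4 was called between si-FAM210B and control cells. The number of p53 targets called lower was 7 to 13 with single arrays left out, fewest without each si-UQCRC2 array, and 15 without both arrays that stood apart. Among 24 regulators of apoptosis, 2 were called lower (8.33%, near the 6.50% over all genes). These were XIAP at -0.38 and BCL2L1 at -0.33, both of which restrain cell death. The call of BCL2L1 was lost in the fit without si-UQCRC2 replicate 2.

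Called epithelial markers were all lower, and called mesenchymal markers all higher, in si-FAM210B cells than in si-UQCRC2 cells. Of 34 epithelial markers 11 (32.4%) were lower and 0 higher in si-FAM210B cells (median -0.11), against 6.50% lower over all genes. Of 24 mesenchymal markers 10 (41.7%) were higher and 0 lower (median 0.19), against 3.28% higher over all genes. Called or not, 11 epithelial markers had differences above 0 and 6 mesenchymal markers had differences below 0. VCAN and COL5A2, matrix genes counted in other lists, were called lower. CDH1, E-cadherin of adherens junctions, read 6.53, 6.59 and 6.63 in si-FAM210B cells, against 7.48, 7.59 and 7.57 in si-UQCRC2 cells. Its control arrays read 7.67, 7.72 and 7.62, above both siRNA groups in mean, and the difference was -0.96 ± 0.06 (adjusted p = 2.44e-05). PKP2, a desmosomal plaque protein, averaged 7.01 in si-FAM210B cells and 7.47 in si-UQCRC2 cells, EPCAM, an epithelial adhesion molecule, 5.30 in si-FAM210B cells and 5.74 in si-UQCRC2 cells, and KRT19, a keratin, 6.89 in si-FAM210B cells and 7.38 in si-UQCRC2 cells. The si-FAM210B arrays of EPCAM lay in the range of the markers of other cell types, near background. In PKP2 and KRT19 the control means, 6.91 and 6.65, were lower than those of both siRNA groups. The lists therefore did not share one position of the control. On the mesenchymal side, MMP2, a gelatinase, read 6.08, 6.18 and 6.26 in si-FAM210B cells, against 5.43, 5.54 and 5.55 in si-UQCRC2 cells, with a control mean of 5.48 and a difference of 0.66 ± 0.07 (adjusted p = 0.000468). SPARC, a matrix glycoprotein, averaged 7.75 in si-FAM210B cells and 7.29 in si-UQCRC2 cells and TAGLN, an actin-binding protein of contractile cells, 7.50 in si-FAM210B cells and 7.0 in si-UQCRC2 cells, and their control means were 6.73 and 6.32. For both, and for TGFB1I1, the control was the lowest of the 3 groups, and each siRNA was called above it. The epithelial count was 10 to 13 with single arrays left out and 13 without both that stood apart; the mesenchymal count was 6 to 12, fewest without si-FAM210B replicate 3 or any si-UQCRC2 array, and 12.

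**Figure D4:**
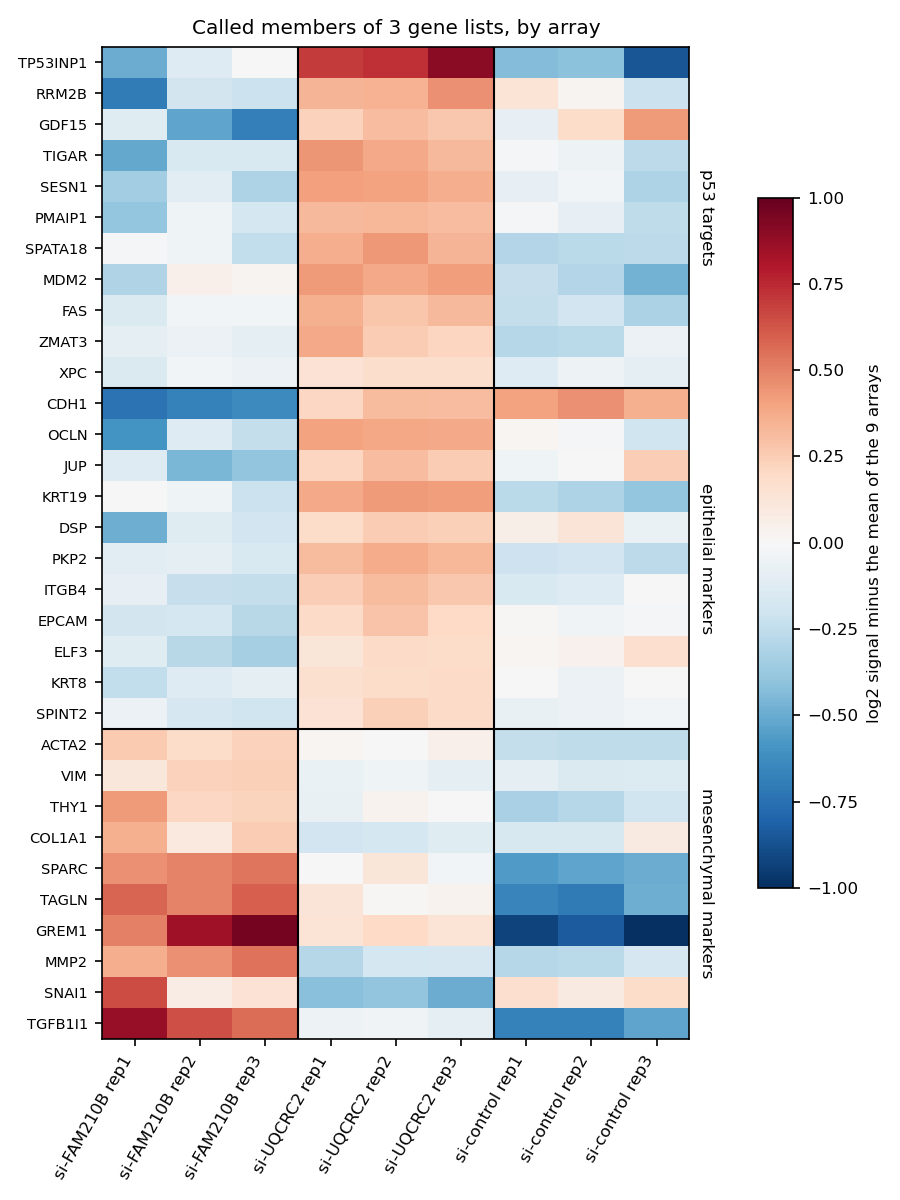
Colour gives log2 signal minus the gene's mean over the 9 arrays, red higher and blue lower, for the called p53 targets, epithelial markers and mesenchymal markers (rows) on each array (columns). The si-FAM210B columns are below the si-UQCRC2 columns in the 11 p53 targets and 11 epithelial markers and above them in the 10 mesenchymal markers, while the control columns vary from gene to gene.

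The cytoskeleton and the matrix did not move as whole sets. Over all genes 3.28% were called higher and 6.50% lower. Contractile and focal adhesion genes had 22.5% and 5%, and collagens, laminins and integrins 10.3% and 17.9%. Proteases of invasion had 16% and 20%, and the Arp2/3 list 6.25% in each direction. Of 40 contractile and focal adhesion genes 9 were higher, ZYX, MYH10 and TGFB1I1 among them, and 2 lower, including PDLIM5, a Z-disc adaptor, at -0.38 ± 0.05 (adjusted p = 0.00233). Collagens, laminins and integrins gave 4 higher and 7 lower of 39. Beside ITGA11 on the higher side, the laminin-binding subunits ITGA6 (-0.74) and ITGB4 (-0.46) and the fibrillar collagen gene COL5A2 (-0.46) were lower. ITGA6 read 7.30, 7.61 and 7.58 in si-FAM210B cells, against 8.25, 8.25 and 8.22 in si-UQCRC2 cells, without overlap, and its control mean was 7.74. Proteases of invasion and their inhibitors gave 4 higher and 5 lower of 25: the metalloproteases ADAM12, MMP2 and ADAMTS12 (0.49) were higher and the inhibitor TIMP4 (-0.52) was lower. Of 16 genes of the Arp2/3 complex and its activators, ARPC1A was called higher and ARPC5, another subunit, lower at -0.23. The call of ARPC5 was lost in the fits without si-FAM210B replicate 3, si-UQCRC2 replicates 1, 2 and 3, and control replicate 2.

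Genes of the integrated stress response were lower in si-FAM210B cells than in si-UQCRC2 cells more often than higher. Of 46 tested, 15 (32.6%) were lower and 4 (8.7%) higher, with a median of -0.22. Over all genes 6.50% were lower and 3.28% higher. SLC1A4, a carrier of neutral amino acids, averaged 6.86 in si-FAM210B cells and 7.26 in si-UQCRC2 cells (difference -0.40 ± 0.05, adjusted p = 0.00169), with a control mean of 6.94. PHGDH, which starts serine synthesis, averaged 6.49 in si-FAM210B cells and 6.83 in si-UQCRC2 cells, with a control mean of 6.61. EIF2AK1, the heme-regulated kinase that starts the response, averaged 8.98 in si-FAM210B cells and 9.32 in si-UQCRC2 cells with a control mean of 9.39. VARS1, a valyl tRNA synthetase with several rows on the array, was higher by 0.30 ± 0.05. The number of lower calls depended on single arrays: it was 16 without the array labelled si-FAM210B replicate 1 and 21 without si-FAM210B replicate 2, but 3 without si-UQCRC2 replicate 1 and 2 without si-UQCRC2 replicate 2 or 3. Without both arrays that stood apart it was 22. The call of EIF2AK1 was lost in the fits without si-UQCRC2 replicates 1, 2 and 3.

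The promoters of 5 called members are shown because they hold the letters TGATGNAA, a core of the composite element bound by ATF4 with C/EBP factors. The element was found on either strand of the 300 bases from 250 before to 50 after the start in 11 of 37 members of the list with a promoter sequence, and in 5 of the 16 called ones that have a sequence. It was in 3.67% of all 27305 promoters and in 1.78% of those of the genes tested. Sequences are from RefSeq on GRCh38.p14, and capitals mark the match. They cover chr7:97872359-97872658 (- strand) for ASNS, chr16:70289457-70289756 (- strand) for AARS1, chr11:3057374-3057673 (- strand) for CARS1, chr9:92293648-92293947 (- strand) for IARS1 and chr11:62881449-62881748 (+ strand) for SLC3A2.
ASNS: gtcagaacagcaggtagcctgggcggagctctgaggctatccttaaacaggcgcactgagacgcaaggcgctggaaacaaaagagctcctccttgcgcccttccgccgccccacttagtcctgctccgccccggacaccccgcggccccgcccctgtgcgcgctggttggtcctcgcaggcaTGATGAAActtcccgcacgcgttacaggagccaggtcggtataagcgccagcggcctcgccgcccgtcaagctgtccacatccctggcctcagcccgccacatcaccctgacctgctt
AARS1: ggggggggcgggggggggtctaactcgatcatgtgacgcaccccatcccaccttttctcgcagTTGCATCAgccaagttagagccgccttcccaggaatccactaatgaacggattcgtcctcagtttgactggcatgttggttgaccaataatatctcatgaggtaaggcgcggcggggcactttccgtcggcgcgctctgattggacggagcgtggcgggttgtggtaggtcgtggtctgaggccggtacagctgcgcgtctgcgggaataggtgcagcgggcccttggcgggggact
CARS1: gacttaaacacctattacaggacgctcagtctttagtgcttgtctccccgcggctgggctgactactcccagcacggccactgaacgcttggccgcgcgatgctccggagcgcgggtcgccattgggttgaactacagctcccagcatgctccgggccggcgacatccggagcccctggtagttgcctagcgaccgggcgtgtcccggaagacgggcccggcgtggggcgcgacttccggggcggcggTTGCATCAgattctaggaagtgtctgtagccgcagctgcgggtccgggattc
IARS1: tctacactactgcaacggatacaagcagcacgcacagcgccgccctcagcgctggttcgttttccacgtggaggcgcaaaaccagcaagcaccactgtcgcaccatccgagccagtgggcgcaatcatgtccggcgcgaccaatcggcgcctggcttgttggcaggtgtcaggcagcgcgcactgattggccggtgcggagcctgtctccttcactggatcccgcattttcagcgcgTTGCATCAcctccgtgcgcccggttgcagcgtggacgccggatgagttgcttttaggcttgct
SLC3A2: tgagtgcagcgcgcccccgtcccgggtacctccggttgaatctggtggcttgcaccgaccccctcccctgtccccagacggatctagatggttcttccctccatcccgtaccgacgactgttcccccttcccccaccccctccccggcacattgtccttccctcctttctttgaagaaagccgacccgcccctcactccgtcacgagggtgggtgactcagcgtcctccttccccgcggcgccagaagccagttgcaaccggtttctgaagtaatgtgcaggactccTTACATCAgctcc

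The 5 genes were picked for this match and not by their rank. ASNS, asparagine synthetase, read 7.03, 7.54 and 7.42 in si-FAM210B cells, against 7.80, 7.88 and 7.82 in si-UQCRC2 cells, a difference of -0.50 ± 0.11 (adjusted p = 0.0209), with a control mean of 7.64. The tRNA synthetase genes AARS1, CARS1 and IARS1 were lower, at -0.45, -0.30 and -0.39. SLC3A2, the heavy chain shared by several amino acid exchangers, was higher by 0.20 (adjusted p = 0.0366). A match is a description of the sequence, and the letters stood in the promoters of genes called in both directions. Chaperones and sensors of the endoplasmic reticulum gave 5 lower (23.8%, against 6.50% over all genes) and 0 higher calls of 21. Lower were XBP1 (-0.32), a factor of the unfolded protein response, ERN1 (-0.25), the sensor that splices its mRNA, and EDEM1 (-0.30), which sends misfolded glycoproteins to degradation. PDIA4 (-0.25), a disulfide isomerase, and HERPUD1 (-0.48), which aids removal of misfolded proteins, were lower too. None of the 5 calls was made when any 1 si-UQCRC2 array was left out. The calls of ASNS, AARS1, CARS1, IARS1, SLC3A2, XBP1, ERN1, EDEM1, PDIA4 and HERPUD1 were lost with 1 or more single arrays left out, these being si-FAM210B replicates 2 and 3, si-UQCRC2 replicates 1, 2 and 3, and control replicates 1 and 2.

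Few genes of the respiratory chain, and none of the mitochondrial ribosome, were called. With UQCRC2 itself set aside, 1 of 17 complex III genes was called, UQCRQ, a small subunit, at 0.27 ± 0.07 (adjusted p = 0.0477). Complex I had 1 of 42 called, NDUFA12 at -0.30 ± 0.08 (adjusted p = 0.0468), and complex V 1 of 20, ATP5ME at 0.34 ± 0.08 (adjusted p = 0.0334). None of 29 complex IV genes, of 75 mitochondrial ribosomal genes or of 22 mitochondrial chaperones and proteases was called, against a background of 9.78%. The smallest adjusted p-values in these 3 lists were those of COX18 (-0.31, adjusted p = 0.0738), MRPS22 (-0.25, adjusted p = 0.0576) and YME1L1 (-0.49, adjusted p = 0.0524). The calls of UQCRQ, NDUFA12 and ATP5ME were lost with 1 or more single arrays left out, these being si-FAM210B replicates 1, 2 and 3, si-UQCRC2 replicates 1, 2 and 3, and control replicates 1 and 2.

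Among carriers and enzymes that feed the chain, UCP2, an inner membrane carrier of the uncoupling protein family, read 7.61, 7.52 and 7.45 in si-FAM210B cells, against 8.47, 8.62 and 8.52 in si-UQCRC2 cells. All si-FAM210B arrays were below all si-UQCRC2 arrays, the control mean was 8.11, and the difference was -1.01 ± 0.07 (adjusted p = 3.41e-05). Of 41 carriers 3 were lower (7.32%, near the 6.50% lower over all genes), with SLC25A35 at -0.54 and SLC25A4, an ADP/ATP carrier, at -0.27. Of 23 genes in the list of the citric acid cycle and complex II, 4 were lower and 1 higher. Lower were OGDH (-0.37), IDH3A (-0.40), SDHD (-0.28), a membrane anchor of complex II, and IDH1 (-0.55). IDH1 is the cytosolic isocitrate dehydrogenase and lies outside the mitochondrial cycle, but the list counts it. IDH3G (0.24), another subunit of the same mitochondrial enzyme as IDH3A, was higher. With IDH1 counted, the list had 17.4% lower and 4.35% higher, against 6.50% and 3.28% over all genes. PDK4 was the only one of 11 pyruvate dehydrogenase genes called with all arrays (9.09%, near the 9.78% over all genes). The heme and iron list had 7.14% in each direction. Heme and iron genes gave 2 higher and 2 lower of 28: HMOX1 and TMEM14C (0.20), which moves a heme precursor in mitochondria, were higher, and the iron importer SLC11A2 (-0.44) and the iron exporter SLC40A1 (-0.37) were lower. FAM210A, the paralog of FAM210B, did not pass, at 0.02 ± 0.05 (adjusted p = 0.847). The calls of SLC25A4, IDH3A, SDHD, IDH3G, TMEM14C and SLC40A1 were lost with 1 or more single arrays left out, these being si-FAM210B replicates 1 and 3, si-UQCRC2 replicates 1, 2 and 3, and control replicates 1 and 2.

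Called genes of glucose use and hypoxia were lower, with 1 exception. Glycolysis genes had 17.4% lower and 4.35% higher and HIF1 targets 19% lower, against 6.50% lower and 3.28% higher over all genes. SLC2A3, a high-affinity glucose transporter, read 6.29, 6.67 and 6.63 in si-FAM210B cells, against 7.49, 7.54 and 7.56 in si-UQCRC2 cells, with control arrays at 7.45, 7.39 and 7.39. The si-FAM210B arrays were the lowest of the 3 groups, and the difference was -1.0 ± 0.09 (adjusted p = 0.000263). Of 23 glycolysis genes 4 were lower and 1 higher, with the regulators TIGAR (-0.65), PFKFB3 (-0.30) and PFKFB2 (-0.27) beside SLC2A3, and ALDOA (0.25), an aldolase, as the higher one. Targets of HIF1 gave 4 lower of 21 and 0 higher: HILPDA (-0.52), a lipid droplet protein, DDIT4 (-0.35), an inhibitor of mTORC1, P4HA1 (-0.52), a collagen prolyl hydroxylase, and CA12 (-0.26), a carbonic anhydrase. The HIF1 count was 1 to 6 with single arrays left out, fewest without si-UQCRC2 replicate 2 or 3. The calls of PFKFB3, PFKFB2, ALDOA, DDIT4, P4HA1 and CA12 were lost with 1 or more single arrays left out, these being si-FAM210B replicates 1 and 3, si-UQCRC2 replicates 1, 2 and 3, and control replicates 1 and 2.

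Most of the calls in lipid synthesis fell in the sterol branch. Of 20 cholesterol genes 6 (30%, against 6.50% over all genes) were lower and 0 higher, with a median of -0.18. HMGCS1, which makes HMG-CoA, read 7.08, 7.69 and 7.69 in si-FAM210B cells, against 8.29, 8.35 and 8.29 in si-UQCRC2 cells, a difference of -0.83 ± 0.15 (adjusted p = 0.00910), with a control mean of 8.07. STARD4, a sterol carrier, averaged 4.89 in si-FAM210B cells and 5.42 in si-UQCRC2 cells with a control mean of 5.25, and HSD17B7 and MSMO1, enzymes of later steps, were lower, at -0.50 and -0.47. The STARD4 means lay in the range of the markers of other cell types, near background. The letters TCACNCCAC of the sterol response element were in the promoters of 1 of the 18 members that have a sequence. They were in 0 of the 6 called, in 1.15% of all promoters and in 1.06% of those of the genes tested. The count was 3 to 9 with single arrays left out, fewest without si-UQCRC2 replicate 2 or 3 and most without si-FAM210B replicate 2. Of 25 fatty acid synthesis genes SCD (-0.65), the desaturase, and ELOVL7 (-0.43), an elongase, were called, both lower, and of 20 oxidation genes ECI1 was called, higher by 0.23. These shares, 8% lower and 5% higher, were near the 6.50% and 3.28% over all genes. The calls of MSMO1, SCD and ECI1 were lost with 1 or more single arrays left out, these being si-FAM210B replicates 1 and 3, si-UQCRC2 replicates 1, 2 and 3, and control replicates 1 and 2.

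Antioxidant genes were split. The NRF2 list had 15.4% called higher and 11.5% lower, against 3.28% and 6.50% over all genes. Of 26 targets of NRF2, 4 were higher, namely HMOX1, OSGIN1 (0.60 ± 0.08), a growth inhibitor, PIR (0.30), an iron-binding nuclear protein, and TXNRD1 (0.20), a thioredoxin reductase. The 3 lower ones were GPX2, ABCC3 (-0.39 ± 0.06), an efflux pump, and EPHX1 (-0.21), an epoxide hydrolase. The calls of PIR, TXNRD1 and EPHX1 were lost with 1 or more single arrays left out, these being si-FAM210B replicates 2 and 3, si-UQCRC2 replicates 1, 2 and 3, and control replicates 1 and 2. The letters TGACNNNGC of the antioxidant response element were sought on both strands. They were in 3 of the 5 called targets with a promoter sequence, GPX2 lower and TXNRD1 and PIR higher. They were also in 6 of all 19 targets with a sequence, in 13.6% of all promoters and in 15.3% of those of the genes tested. The GPX2 promoter, chr14:64942696-64942995 (- strand) on GRCh38.p14 from RefSeq, is shown for the largest of these differences, with the match in capitals.
GPX2: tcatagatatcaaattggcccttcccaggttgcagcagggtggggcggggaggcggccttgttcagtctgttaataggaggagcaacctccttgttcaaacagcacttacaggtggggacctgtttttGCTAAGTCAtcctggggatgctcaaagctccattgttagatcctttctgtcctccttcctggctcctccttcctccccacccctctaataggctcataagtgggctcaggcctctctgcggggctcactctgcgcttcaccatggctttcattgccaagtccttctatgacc

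Glutathione enzymes gave 3 lower (11.5%, against 6.50% over all genes) and 0 higher of 26. Beside GPX2 these were MGST2 (-0.52), a microsomal transferase, and GLRX (-0.31), a glutaredoxin. Xenobiotic and aldehyde enzymes had 20.6% lower and 2.94% higher, against 3.28% higher over all genes. Metallothionein and zinc transport genes had 3.45% in each direction. Enzymes of xenobiotics and aldehydes gave 7 lower and 1 higher of 34: the aldehyde dehydrogenases ALDH1A3 (-0.32), ALDH3A1 (-0.38) and ALDH6A1 (-0.42) were lower and the cytochrome P450 gene CYP1B1 (0.33) was higher. Among 29 metallothionein and zinc transport genes, MT1X, which binds zinc, averaged 8.39 in si-FAM210B cells and 8.74 in si-UQCRC2 cells, both above the control mean of 7.98, and SLC39A13, a zinc carrier, was higher by 0.27. Metallothionein genes are near-identical, so the signal of MT1X may be shared. The calls of GLRX, MT1X and SLC39A13 were lost with 1 or more single arrays left out, these being si-FAM210B replicates 1 and 3, si-UQCRC2 replicates 1, 2 and 3, and control replicates 1 and 2.

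Signalling genes gave calls in both directions. The TGF-beta and BMP list had 10.4% higher and 20.8% lower, against 3.28% and 6.50% over all genes. ERK feedback genes had 20% lower, immediate early genes 12.5% higher and 8.33% lower, and YAP and TEAD targets 10.3% and 3.45%. In the TGF-beta and BMP list 5 of 48 were higher and 10 lower. SMAD6, an inhibitor of BMP signalling, was lower, at -0.58 ± 0.06, as was TGFBR3, a co-receptor, at -0.45 ± 0.06, while PMEPA1, a feedback inhibitor of TGF-beta signalling, was higher by 0.60 ± 0.08 and FST, which binds activin, by 0.51 ± 0.07. In SMAD6, TGFBR3 and PMEPA1 the control means, 7.65, 6.54 and 7.80, were near those of si-UQCRC2 cells, where the differences from control were 0.04, -0.02 and -0.05. The lower count of this list was 3 to 10 with single arrays left out, fewest without si-UQCRC2 replicate 1 or 2. Feedback genes of the ERK kinases gave 4 lower and 0 higher of 20: the phosphatases DUSP6 (-0.39) and DUSP4 (-0.36), the factor ETV4 (-0.43) and the receptor EPHA2 (-0.26). Of 24 immediate early genes the AP-1 members FOSL1 (0.57) and FOSL2 (0.35) and the growth factor-induced gene MYC (0.23) were higher, and NR4A2 (-0.47), an orphan nuclear receptor, and BHLHE40 (-0.39), a repressor tied to the clock, were lower. Targets of YAP and TEAD gave 3 higher and 1 lower of 29, with FJX1 at 0.65, IGFBP3, which binds insulin-like growth factors, at 0.44, CCN2, a matrix-associated growth factor, at 0.37 and CRIM1 at -0.34. The calls of EPHA2, MYC, CCN2 and CRIM1 were lost with 1 or more single arrays left out, these being si-FAM210B replicates 1 and 3, si-UQCRC2 replicates 1, 2 and 3, and control replicate 2.

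Prostaglandin and hyaluronan genes held 3 of the largest differences on the lower side, TNFAIP6, VCAN and PTGS2. TNFAIP6 was tested only because of its si-UQCRC2 level, so its place in the list rests on that level. PLA2G4A, the phospholipase that frees arachidonic acid for the cyclooxygenases, read 4.74, 5.39 and 5.22 in si-FAM210B cells, against 6.16, 6.40 and 6.34 in si-UQCRC2 cells. The control arrays read 6.44, 6.27 and 5.99, and the difference was -1.18 ± 0.16 (adjusted p = 0.00251). The si-FAM210B arrays lay in the range of the markers of other cell types, near background. CEMIP2 (-0.50), a cell-surface protein tied to hyaluronan breakdown, was lower too. The list as a whole, 39 genes with 5 lower (12.8%, TNFAIP6 included) and 0 higher, had a median of 0.06 against 0.05 over all genes. The inflammatory list had 14.3% called in each direction, and the interferon list 6.67% higher and 20% lower. Over all genes 3.28% were higher and 6.50% lower. Inflammatory genes gave 4 higher and 4 lower of 28: the cytokine genes IL11 (0.64) and IL18 (-0.80) went opposite ways, as did NFKB2 (0.32), a subunit of NF-kappaB, and NFKBIZ (-0.33), a nuclear regulator of its targets. Interferon-stimulated genes gave 2 higher and 6 lower of 30, with SAMD9 (-0.69), an antiviral factor, OAS1 (-0.46), a sensor of double-stranded RNA, and IFI6 (-0.48) beside IFI30. The calls of CEMIP2, NFKB2 and NFKBIZ were lost with 1 or more single arrays left out, these being si-UQCRC2 replicates 1, 2 and 3.

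DGKA, a kinase that turns diacylglycerol into phosphatidic acid, read 7.04, 7.23 and 7.18 in si-FAM210B cells, against 8.05, 8.04 and 8.08 in si-UQCRC2 cells. Its control arrays read 6.74, 6.75 and 6.73, so both siRNA groups were above control, si-UQCRC2 cells the more so, and the difference was -0.91 ± 0.06 (adjusted p = 3.84e-05). Of 7 such kinases DGKH (-0.35) and DGKE (-0.40) were lower too and DGKD (0.24) was higher. The shares were 42.9% lower and 14.3% higher, against 6.50% and 3.28% over all genes. Among hormones, binding proteins and receptors 4 of 24 (16.7%) were higher and 5 (20.8%) lower. IGFBP7 averaged 9.55 in si-FAM210B cells and 10.05 in si-UQCRC2 cells, IGFBP1 4.79 in si-FAM210B cells and 5.29 in si-UQCRC2 cells and PROCR, the receptor of protein C, 7.95 in si-FAM210B cells and 8.64 in si-UQCRC2 cells, all lower in si-FAM210B cells, and their control means were 9.03, 4.72 and 8.40. The IGFBP1 means lay in the range of the markers of other cell types, near background. Complement and liver-type genes gave 1 higher and 3 lower of 20: FGA (-0.49), a fibrinogen chain, and CD46 (-0.40), a complement inhibitor, were lower beside C5, and AMBP (0.30) was higher. CEACAM6, a surface adhesion molecule of lung epithelium, read 5.19, 5.09 and 5.19 in si-FAM210B cells, against 5.98, 6.14 and 6.05 in si-UQCRC2 cells, a difference of -0.90 ± 0.07 (adjusted p = 6.69e-05), with a control mean of 5.36. Its si-FAM210B arrays lay in the range of the markers of other cell types, near background. CEACAM6 was the lower call of 24 lineage genes, and GATA6, a lung and gut factor, was the higher one at 0.32. Complement and liver-type genes thus had 5% higher and 15% lower, and lineage genes 4.17% in each direction. The calls of DGKH, DGKE, DGKD, FGA, CD46, AMBP and GATA6 were lost with 1 or more single arrays left out, these being si-FAM210B replicates 1 and 3, si-UQCRC2 replicates 1, 2 and 3, and control replicates 1 and 2.

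Cell cycle lists gave few calls, at 6% of replication genes, 6.67% of mitosis genes and 9.52% of histone genes, against 9.78% over all genes. Of 50 replication genes 2 were higher, RRM2 (0.34) of ribonucleotide reductase and the thymidine kinase gene TK1 (0.21), and 1 lower, PCNA (-0.41), the sliding clamp. Of 60 mitosis genes 3 were higher, FOXM1 (0.41), a factor of mitotic genes, AURKB (0.28), a chromosome passenger kinase, and ESPL1 (0.25), separase, and 1 lower, the spindle kinase gene AURKA (-0.21). Replication-dependent histones gave H2BC14 (0.43) higher and H2BC5 (-0.31) lower of 21, and their copies are near-identical. Without both arrays that stood apart the higher calls numbered 12 for replication and 15 for mitosis, while those over all genes numbered 1760 in that fit and 524 with all arrays. With cyclic loess normalization they numbered 7 and 8, and 681 over all genes. The calls of RRM2, TK1, PCNA, FOXM1, AURKB, ESPL1, AURKA and H2BC5 were lost with 1 or more single arrays left out, these being si-FAM210B replicates 1 and 3, si-UQCRC2 replicates 1, 2 and 3, and control replicates 1, 2 and 3.

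Lists of protein turnover and synthesis were called in differing shares. Of 48 lysosome and autophagy genes 6 were higher and 5 lower, 12.5% and 10.4%, against 3.28% and 6.50% over all genes. Which direction held more calls turned with the setting: there were 6 higher and 8 lower without si-FAM210B replicate 2, 7 and 10 without both arrays that stood apart, 7 and 8 with cyclic loess, and 4 and 5 with array weights. TPP1, a lysosomal peptidase, was higher by 0.44 ± 0.05 and SQSTM1, the autophagy receptor p62, by 0.39 ± 0.05, while WIPI1, an early autophagy protein, was lower, at -0.59 ± 0.09, as was MITF, a factor of lysosomal genes, at -0.60 ± 0.09. WIPI1 averaged 6.80 in si-FAM210B cells and 7.39 in si-UQCRC2 cells, and its control mean of 6.39 was below both. Of 42 proteasome genes PSMC3 (0.37), a subunit of the base, and PSMD3 (0.19), of the lid, were higher and none was lower, 4.76% against 3.28% higher over all genes. Cytosolic ribosomal proteins gave 5 higher (10.4%) and 0 lower of 48, with a median of 0.12, namely RPL28 (0.38), RPS12 (0.29), RPL27 (0.23), RPL26 (0.23) and RPL29 (0.22). The ribosomal count was 1 to 8 with single arrays left out, fewest without si-UQCRC2 replicate 3, and 20 without both that stood apart. A longer list of markers of other cell types held 22 genes, of which 10 were tested. It is not the set of 13 markers that gave the background range. Of these 10, 1 was called (10%, near the 9.78% over all genes), RBFOX3, a neuronal protein outside those 13, at -0.31 ± 0.08 (adjusted p = 0.0371). The calls of PSMD3, RPS12, RPL27, RPL26, RPL29 and RBFOX3 were lost with 1 or more single arrays left out, these being si-FAM210B replicates 1, 2 and 3, si-UQCRC2 replicates 1, 2 and 3, and control replicates 1 and 2.

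**Figure D5:**
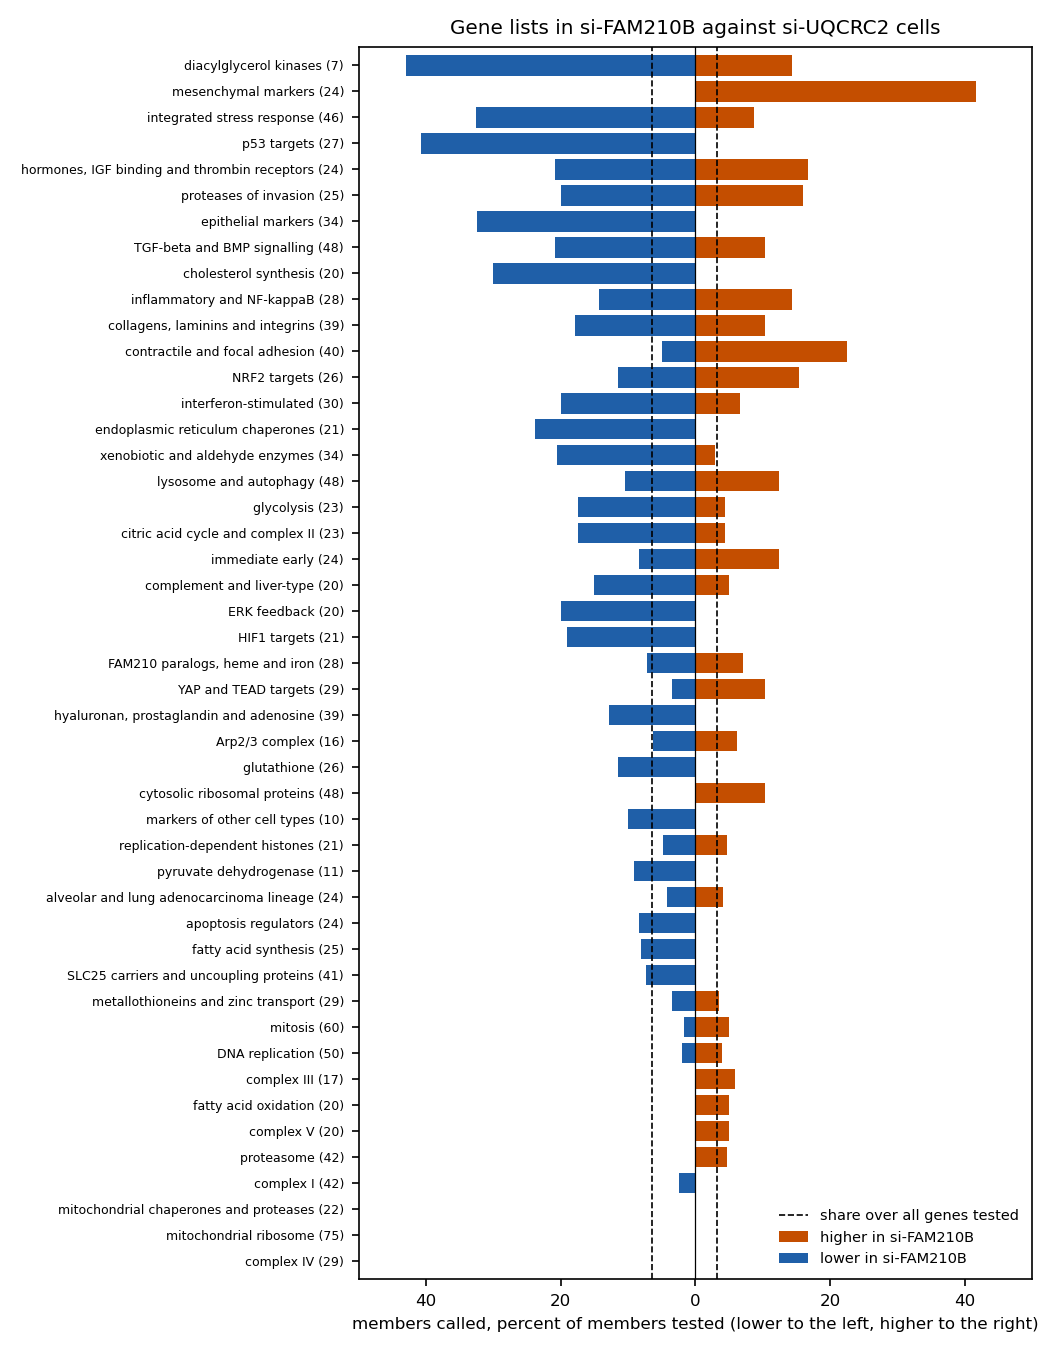
Bars give the percent of tested members called higher (right) and lower (left) in si-FAM210B than in si-UQCRC2 cells for 47 gene lists, with the number tested in brackets and dashed lines at the shares over all genes, 3.28% and 6.50%. Diacylglycerol kinases, mesenchymal markers, the integrated stress response and p53 targets head the plot, and complex IV, the mitochondrial ribosome and mitochondrial chaperones have no bar.

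Among genes of other types, 46 of 834 long noncoding RNAs (5.52%) were called, 29 higher and 17 lower, and 22 of 408 microRNA genes (5.39%), 10 higher and 12 lower, against 9.78% over all genes. Array rows for microRNA genes can read host or precursor transcripts, so they need not measure the mature RNA. Seeds were compared only among called microRNA genes whose mature sequence was at hand. This left out MIR548A2 (-0.64), MIR548AA2 (-0.46) and MIR548H4 (-0.50), all called lower, so whether they share a seed was not tested. The following sequences were chosen after the values were seen, with the seed, bases 2 to 8, in capitals. MIR3189 had the largest difference of the called microRNA genes that lie within a called gene. The others are of called microRNA genes found to share a seed. The sequences are from RefSeq.
hsa-miR-3189-5p: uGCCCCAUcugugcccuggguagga
hsa-miR-3189-3p: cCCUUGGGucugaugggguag
hsa-miR-378c: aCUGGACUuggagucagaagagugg
hsa-miR-422a: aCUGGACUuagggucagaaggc
hsa-miR-3916: aAGAGGAAgaaauggcugguucucag
hsa-miR-3125: uAGAGGAAgcuguggagaga

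MIR3189 on chromosome 19 lies within GDF15, a secreted stress cytokine gene. MIR3189 was lower, at -0.92 ± 0.13 (adjusted p = 0.00246), as was GDF15, at -0.72 ± 0.15 (adjusted p = 0.0174), in a stretch where the rows of both may read the same transcript. GDF15 read 7.66, 7.26 and 7.10 in si-FAM210B cells, against 8.02, 8.10 and 8.05 in si-UQCRC2 cells, with control arrays at 7.71, 7.97 and 8.21, among which replicate 3 was highest. MIR378C (0.30) and MIR422A (0.59) carry one seed and were both higher, as were MIR3916 (0.55) and MIR3125 (0.30), which carry another. In every group the means of MIR378C and MIR422A lay in the range of the markers of other cell types, near background. The MIR3189 mean of si-FAM210B cells lay in that range too. Calls of single microRNA genes were not followed with arrays left out. The call of GDF15 was lost in the fits without si-FAM210B replicate 3, and si-UQCRC2 replicates 1, 2 and 3.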

How the data were processed

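Total RNA of A549 cells was labelled with biotin and hybridised to Affymetrix arrays, per the labels' protocols. The deposited table holds log2 signal values that the authors made by RMA, named without a version per the submitters' processing notes. RMA removes background, equalises the distribution of probe signals between arrays and combines probes, so it removes shifts common to all genes and can compress small differences of weak transcripts. Array medians still ranged from 4.20 to 4.40. Which software and annotation served, and which arrays were normalized jointly, is not given in the sources used here.

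Of 67528 rows, 23781 had 1 gene symbol, 1543 several and 42204 none in the platform annotation, and symbols were updated through RefSeq records of GRCh38.p14. The row of highest mean stood for each of 528 genes with more than 1 row, and genes were tested at a mean of 4.25 or more. All 9 arrays entered 1 model without covariates in limma 3.58.1 under R 4.3.3 (lmFit and eBayes, 6 residual degrees of freedom), which was tested on simulated data. The simulated arrays were independent and had the same SD for a gene in every group. They therefore do not test the model under the unequal spread and shared deviations of the real arrays. A gene is called at a Benjamini-Hochberg adjusted p under 0.05 over the 15964 genes, and every adjusted p is from limma. Arrays have no counting depth, so their number limits the precision.

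Arrays were grouped by their titles. Same-numbered si-FAM210B and si-UQCRC2 arrays did not deviate together (r = -0.07, -0.04 and -0.04 over genes), but si-UQCRC2 arrays deviated little from each other. Same-numbered si-FAM210B and control arrays had r = -0.58, 0.51 and -0.39, and si-FAM210B replicate 1 had r = 0.74 with control replicate 3. Deviations were thus shared between groups, but not by replicate number, and no replicate block was used. The genes named are both targets, the 12 protein-coding genes with the largest called difference in each direction without overlap, and up to 4 members of smallest p in each of 47 gene lists; genes named for a promoter motif, the small RNAs and the genes that host them, and members that complete a count of 5 or fewer were added after their values were seen. The groups compared, the lists and the tests were chosen with earlier results of these data known. Lists are described by counts and medians without a set test. Other settings covered the filter, normalization between arrays, rows of a gene, arrays in the fit, array weights, the prior variance, the replicate block and left-out arrays.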

Additional observations from a re-analysis of the deposited data

How the results depend on the processing

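Against 1561 genes called (524 higher, 1037 lower in si-FAM210B than in si-UQCRC2 cells), other filters, normalizations, choices of row and a trended prior gave 1373 to 1935 calls. Fitting only the 6 siRNA arrays gave 1040 (336 higher). Array weights gave 830 (259 higher, 571 lower), but their estimation stopped before it converged. The replicate block gave 798 (235 higher, 563 lower), of which 790 were among the 1561. The cause of this drop was not tested. With single arrays left out the total was 505 to 3280, the higher calls 146 to 1541 and the lower calls 359 to 1739; without both si-FAM210B replicate 1 and control replicate 3 they were 3835, 1760 and 2075. The cause of these shifts was not tested, beyond the fewer arrays in each such fit. The FAM210B difference of -0.20 passed at -0.30 without si-FAM210B replicate 1 and at -0.30 without both arrays; over single left-out arrays it ran from -0.30 to -0.11. UQCRC2 kept its direction and call in all settings. Of 161 named called genes, targets aside, none reversed and 94 were called in every setting that tested them. These 161 do not include the named microRNA and small nucleolar RNA genes, or the named genes that were not called.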

Other observations

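Small nucleolar RNAs of 2 imprinted clusters, chosen after their values were seen, held 12 of the 17 lower calls of that type. Of 9 SNORD116 genes tested, which lie within SNHG14, 8 were called lower and none higher. The si-FAM210B arrays were below the si-UQCRC2 arrays in all 9, and the median difference was -0.49. Over all genes 6.50% were called lower, and in 19.7% all si-FAM210B arrays lay below the si-UQCRC2 arrays. SNORD116-14 had the largest, -0.82, and SNORD116-8 the smallest, -0.31. None of the 9 was called between si-FAM210B and control cells. In si-UQCRC2 cells SNORD116-17, SNORD116-18, SNORD116-8 and SNORD116-23 were called above control, by 0.61, 0.46, 0.40 and 0.32, and the others were not called. Of 11 SNORD114 genes, within MEG8, 4 were called lower and none higher, the groups did not overlap in 6, and the differences ran from -0.62 to 0.03 with a median of -0.30. The 4 called, SNORD114-14, SNORD114-17, SNORD114-20 and SNORD114-21, were called above control in si-UQCRC2 cells, by 0.69, 0.76, 0.51 and 0.70. Of these 4 only SNORD114-14 was called between si-FAM210B and control cells, higher by 0.32. The copies of each family are near-identical, so their rows are not independent. Of all 153 small nucleolar RNA genes tested, 18 were called (11.8%, against 9.78% over all genes), 1 higher and 17 lower.

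Letters of 5 further elements were sought on both strands of the promoters of list members that have a sequence. Shares are given for all promoters and then for those of the genes tested. The AP-1 element TGANTCA was in 1 of 18 immediate early genes and 1 of the 2 called, against 7.76% and 4.83%. The TEAD element GGAATG was in 8 of 22 YAP and TEAD targets and 1 of the 3 called, against 14% and 11.1%. The cell cycle homology region TTTGAA was in 34 of 50 mitosis genes and 1 of the 2 called, against 15.4% and 9.45%. The E2F element TTTNGCGC was in 16 of 43 replication genes and 0 of the 3 called, against 1.83% and 2.68%. The metal response element TGCNCNC was in 13 of 21 metallothionein and zinc transport genes and both of those called, against 55.2% and 64%.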
